A study of Rattus norvegicus with 8 samples.

Results

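The miR-199a and miR-214 cluster comprises 4 mature microRNAs (miRNAs) on the rat array: rno-miR-199a-5p, rno-miR-199a-3p, rno-miR-214-5p and rno-miR-214-3p, written below without the species prefix. They were taken by their names in the scanner files, with every non-control probe that carries such a name, which gave 4 of 758 rat miRNAs and 8 of 1806 probes. Each of the 8 single-colour arrays held RNA from synovial tissue, the lining of the joint, of a Sprague-Dawley rat's left knee. In 4 samples the anterior cruciate ligament, which holds the knee in place, had been cut through a medial opening of the joint (ACLT, a surgical model of osteoarthritis). In 4 sham samples the same ligament was laid open to view and left whole. The tissue came from the side of the joint away from the opening, so both groups share surgery on that knee, and no unoperated knee was measured. The sources used here give no age or sex. They also disagree on the time of sampling, with 2 weeks in the protocol, 14 days in the title and 7 days in the design text. Nothing in the labels says whether replicates came from separate animals, so a p-value here covers only the spread among these samples, which may be technical.

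A miRNA gene is transcribed as a longer RNA that is cut to a hairpin. Either strand of the hairpin, the 5p arm or the 3p arm, can be loaded into an Argonaute protein and guide it to messenger RNAs that pair with the seed, the bases near the 5′ end. The miR-199a hairpin of the gene Mir199a2 and the hairpin of miR-214 are made from one long noncoding transcript, Dnm3os, which runs antisense to the dynamin gene Dnm3. Both are known from mesenchymal tissues, among them developing skeleton, fibroblasts and fibrotic stroma, and transcription of the host RNA is known to be driven by Twist1. The comparison of interest was whether the arms moved together from array to array, as arms of one transcript could, and whether any of them differed between ACLT and sham synovium. The array reads mature miRNAs and not their source, so whether another gene adds to the miR-199a signal was not tested.

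The 4 mature sequences were found by name in RefSeq's table for the rat build GRCr8, all on the plus strand of chromosome 13. They are shown because a loaded arm pairs with its targets through its own seed, bases 2 to 8, which stand in capitals. The miR-214-5p sequence is an entry of 17 bases, and whether that stretch is loaded as a guide was not tested.
miR-199a-5p: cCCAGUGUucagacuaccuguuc
miR-199a-3p: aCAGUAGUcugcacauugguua
miR-214-5p: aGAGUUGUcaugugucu
miR-214-3p: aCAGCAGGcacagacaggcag
miR-199a-5p lies at chr13:77116255-77116277 and miR-199a-3p at chr13:77116294-77116315, both in the gene Mir199a2. miR-214-5p lies at chr13:77121656-77121672 and miR-214-3p at chr13:77121713-77121733, both in Mir214. Between the end of miR-199a-3p and the start of miR-214-5p lie 5340 bases, and both genes fall within the span of Dnm3, which the same annotation places on the other strand. The 3p arms of both hairpins open with the letters aCAG and then part, so no seed is shared among the 4 miRNAs. Among the other mature miRNAs that this table holds, none has any of the 4 seeds. The table holds 685 of the 758 names on the array, and the seeds of the rest, among them miR-761, were not compared. miR-3120, a mature miRNA of 21 bases, lies at chr13:77121672-77121692 on the minus strand, within the reverse complement of the Mir214 hairpin. The scanner software called miR-3120 detected on 0 of 8 arrays. The array's own layout file names build rn4, so these places rest on the match of names and not on the probes.

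miR-199a-5p, miR-199a-3p and miR-214-3p were detected on all 8 arrays, with signals well above background, while no array gave such a signal for miR-214-5p. Levels are given as the log2 of a probe's processed signal, in which background is already subtracted, over the 75th percentile of the array's clearly measured probes. A difference of 1 on this scale is a doubling. Each miRNA had a pair of probes, each printed in 8 spots per array, and is represented by the brighter probe. Levels of different probes cannot be set against each other, since probes differ in how they bind, so the order of abundance of the arms is not read from them.

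miR-199a-5p, the arm from the 5′ side of its hairpin, lay at -0.11, 0.29, -0.04 and -0.37 on ACLT replicates 1 to 4. On sham replicates 1 to 4 it lay at 0.08, -0.11, -0.45 and -0.10. The groups overlapped almost throughout: the highest array was ACLT replicate 2 and the lowest sham replicate 3. The ACLT mean was -0.06 ± 0.27 and the sham mean -0.14 ± 0.22 (SD, n = 4 each). The log2 difference was 0.09 (SE 0.17, 95% interval -0.31 to 0.48), with an adjusted p = 0.921 by limma with Benjamini-Hochberg adjustment over all tested miRNAs. It was -0.03 without ACLT replicate 2 and -0.01 without sham replicate 3, so its sign rests on single arrays.

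miR-199a-3p, the arm from the other side of that hairpin, is known as a repressor of the receptor Met and of the kinase mTOR. Its level was 2.22, 2.47, 1.73 and 1.65 on the ACLT arrays. On the sham arrays it was 2.14, 2.10, 1.53 and 2.32. ACLT replicates 3 and 4 and sham replicate 3 were low, and the other 5 arrays lay together at 2.10 to 2.47, so both groups held high and low arrays. The group means were 2.02 ± 0.39 and 2.02 ± 0.34 (SD, n = 4 each). The log2 difference was -0.0057 (SE 0.24, 95% interval -0.58 to 0.57, limma adjusted p = 1.00). The interval leaves room for changes between 0.669-fold and 1.48-fold. Leaving out 1 array moved the difference between -0.17, for the fit that lacked sham replicate 3, and 0.12, for the one that lacked ACLT replicate 4. It was also positive, at 0.02 to 0.09, when ACLT replicate 3 or sham replicate 1, 2 or 4 was left out.

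miR-214-3p, which is known to target Atf4 in osteoblasts, lay at 0.70, 0.79, 0.28 and 0.41 on the ACLT arrays. It lay at 0.80, 0.66, -0.01 and 0.36 on the sham arrays. Replicates 1 and 2 of both groups were the 4 highest arrays and replicates 3 and 4 the 4 lowest. The ACLT mean was 0.54 ± 0.24 and the sham mean 0.45 ± 0.36 (SD, n = 4 each). The log2 difference was 0.09 (SE 0.20, 95% interval -0.39 to 0.58, limma adjusted p = 0.964), and without sham replicate 3 it was -0.06. The arrays lay in 2 rows of 1 slide: row 1 held the first pair of replicates of each group, numbers 1 and 2, and row 2 held numbers 3 and 4. The order of this arm over arrays thus followed the slide rows, and whether the row had a part in it was not tested.

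miR-214-5p, the entry named for the other arm of that hairpin, gave mean signals of 0.861 to 3.91 units with one probe and -1.73 to 1.69 with the other, over the 8 arrays. Of the spots used, 0 of 58 and 0 of 56 were well above background, while 13 and 4 were marked as significantly above it by the scanner software. The arm sat at the lower bound of the scale, -4.48, on every array. No level and no fold is given for it, and whether the arm is present below that bound could not be read from these arrays. The values concern the entry of that name, 17 bases long, and the probes were not placed on the genome. Whether they would catch a strand from another stretch of that side of the hairpin was not tested.

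**Figure D1:**
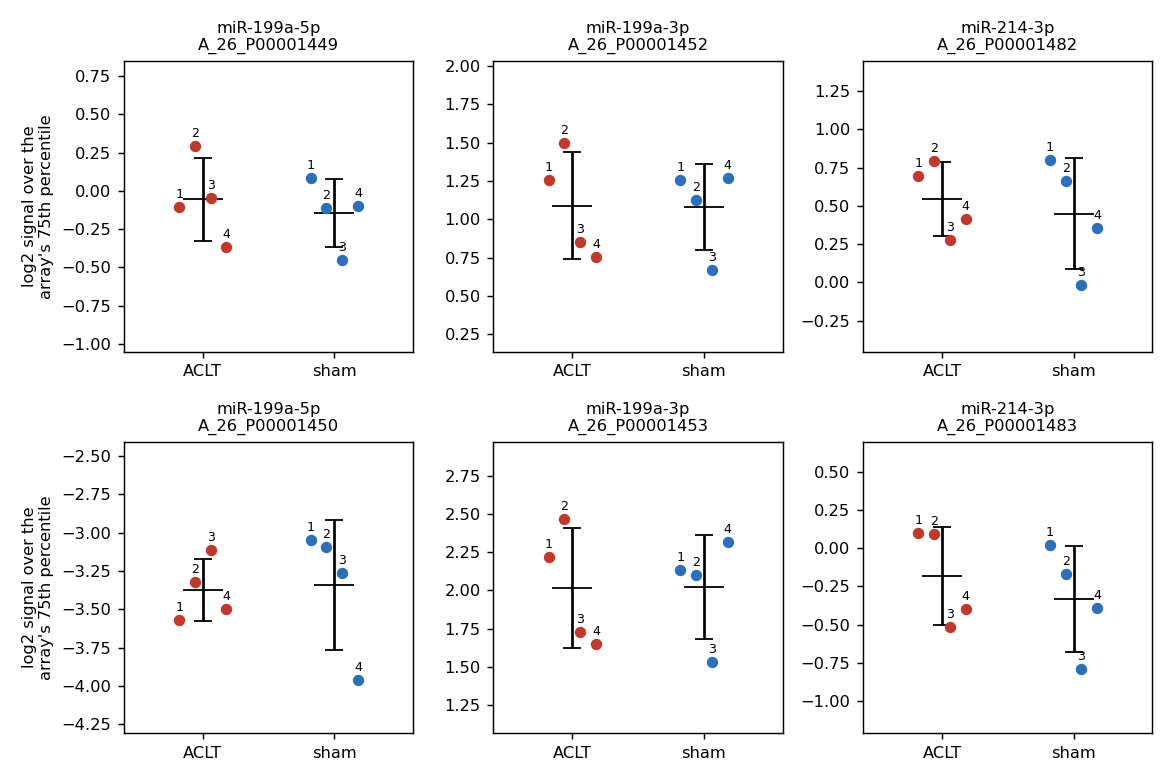
Level of each probe of the 3 measured arms by group, as log2 of the processed signal over the array's 75th percentile; points are single arrays with their replicate number, and bars show the mean ± SD of 4 arrays. All panels span the same height, and in each the ACLT and sham arrays overlap.

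By limma, 0 of the 3 tested arms passed at an adjusted p of 0.05, against 0 of 113 tested miRNAs (0%). At an unadjusted p under 0.05 the counts were 0 of the 3 arms and 8 of the 113 miRNAs (7.08%). The values of ACLT and sham arrays stayed apart without overlap for 0 of the 3 arms and for 0 of the 113 (0%). In synovial tissue as a whole, fewer cells of a type and less of a miRNA per cell cannot be told apart. Within slide row 1 the difference of miR-199a-3p was 0.22 and within row 2 it was -0.24. The corresponding values were 0.11 and 0.07 for miR-199a-5p and 0.01 and 0.17 for miR-214-3p.

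The direction of the differences moved with the scaling. All 3 were positive when the 75th percentile was computed from all probes (0.47 for miR-199a-5p, 0.37 for miR-199a-3p and 0.47 for miR-214-3p), and also without scaling and in the authors' deposited value table. All 3 were negative when arrays were scaled by the labelling spike-in probes (-0.11, -0.21 and -0.11), which are controls for an RNA added before labelling. The median of all tested miRNAs moved the same way, from -0.07 to 0.25 and to -0.28. With the 75th percentile taken without probes of 8 listed striated muscle miRNAs, the 3 differences were 0.23, 0.14 and 0.24 and the median 0.03. The 95% interval of each arm included 0 under each of these scalings. With no scaling the differences were 0.41, 0.32 and 0.42, and the deposited table is likewise unscaled between arrays. On each array 10.5% to 17.0% of spots were well above background, so the 75th percentile over all probes fell among probes that were not. How far that percentile removed the brightness of the arrays was not tested.

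**Figure D2:**
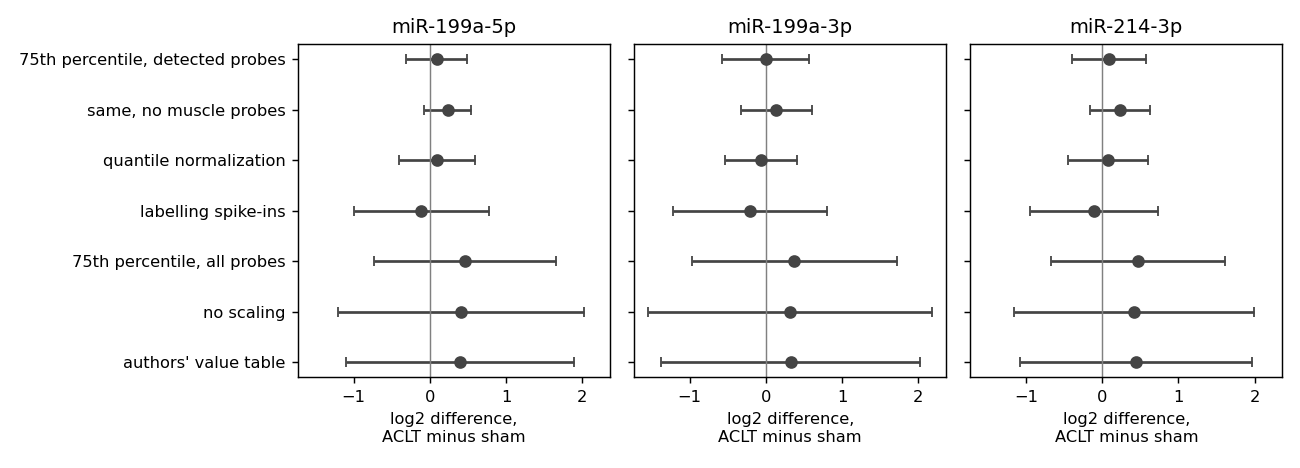
Log2 difference, ACLT minus sham, of the 3 measured arms under 7 scalings, with points for the estimate and bars for the 95% interval from limma. Every bar crosses 0, and the points lie on both sides of it.

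Both probes of an arm gave nearly the same picture for miR-199a-3p and miR-214-3p and not for miR-199a-5p. For miR-199a-3p the log2 ratio of its 2 probes had an SD of 0.06 over the 8 arrays, and the probes' differences between groups were -0.0057 and 0.01. For miR-214-3p the SD was 0.07 and the differences were 0.09 and 0.15. For miR-199a-5p the SD was 0.35, and the differences, 0.09 and -0.04, had opposite signs. The dimmer miR-199a-5p probe gave 27.0 to 109 units, 2.99 to 6.50 times the local background. The brighter probe of that arm reached 11.5 to 52.1 times. On the same measure the miR-214-5p probes, with no spot well above background, gave 1.82 to 2.12 times. Spots of 1 probe on 1 array differed by a median coefficient of variation of 4.75% to 7.36% by probe, and by up to 15.7% for the dimmer miR-199a-5p probe. Why the probes of this arm disagreed was not tested.

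A ratio of 2 arms on the same array does not depend on how arrays are scaled to each other, so the balance of the arms was compared through such ratios. Each is given as its deviation from its own mean over the 8 arrays. The ratio of miR-199a-3p over miR-199a-5p, the arms of 1 hairpin, deviated by 0.20, 0.05, -0.35 and -0.10 on the ACLT arrays. It deviated by -0.07, 0.09, -0.13 and 0.30 on the sham arrays. ACLT replicate 3 was lowest and sham replicate 4 highest, a range of 1.56-fold, and the groups overlapped. The difference, ACLT minus sham, was -0.09 (two-sided exact permutation p = 0.571, adjusted p = 0.900 over the 3 ratios).

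For miR-214-3p over miR-199a-5p, which come from different hairpins, the ACLT arrays deviated by 0.21, -0.10, -0.28 and 0.18. The sham arrays deviated by 0.12, 0.17, -0.16 and -0.14. High and low arrays stood in both groups, over a range of 1.40-fold. The difference between groups was 0.0061 (two-sided exact permutation p = 0.971, adjusted p = 0.971).

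For miR-214-3p over miR-199a-3p, the 3p arms of both hairpins, the ACLT arrays deviated by 0.00156, -0.15, 0.07 and 0.28. The sham arrays deviated by 0.18, 0.08, -0.03 and -0.44. Sham replicate 4 was the lowest and ACLT replicate 4 the highest, a range of 1.65-fold. The difference was 0.10 (two-sided exact permutation p = 0.600, adjusted p = 0.900), and it was -0.03 without sham replicate 4. The smallest p that 4 arrays against 4 can give is 0.0286. None of the 3 ratios kept its sign in both slide rows: within row 1 the differences were 0.12, -0.09 and -0.21, and within row 2 they were -0.31, 0.10 and 0.41, in the order given.

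**Figure D3:**
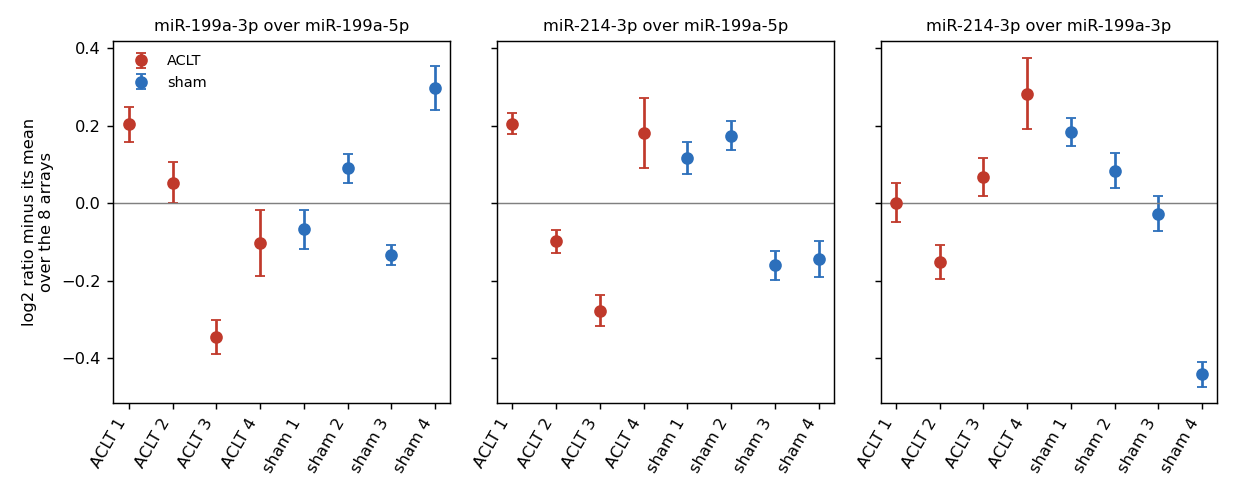
Within-array log2 ratios of the measured arms, each as its deviation from its mean over the 8 arrays; bars are 1 SE computed from the spots of both probes. ACLT and sham arrays overlap in each panel, and sham replicate 4 lies lowest in the panel of miR-214-3p over miR-199a-3p.

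The SD of the log2 ratio over arrays was 0.20 for miR-199a-3p over miR-199a-5p, 0.19 for miR-214-3p over miR-199a-5p and 0.22 for miR-214-3p over miR-199a-3p, and the SE from the spots had medians of 0.04 to 0.05. The arrays fell into 2 sets by brightness: on ACLT replicates 1 and 2 and sham replicate 4 the 75th percentile was 797 to 1185 units, and on the other 5 arrays it was 289 to 353. In slide row 1 both ACLT arrays were of the brighter set and both sham arrays of the other. In row 2 only sham replicate 4 was of the brighter set. In differences within row 1, group and brightness thus cannot be told apart. On the 3 brighter arrays the ratio of miR-214-3p over miR-199a-3p deviated by -0.44 to 0.00156, and on the 5 others by -0.03 to 0.28. The ratio of the brighter over the dimmer miR-199a-5p probe, which measure the same miRNA, deviated by 0.20 to 0.60 on the brighter arrays and by -0.45 to -0.12 on the others. The scaled level of miR-199a-3p also parted by set, at 2.22 to 2.47 on the brighter arrays and 1.53 to 2.14 on the others. The sets overlapped for miR-199a-5p (-0.11 to 0.29 and -0.45 to 0.08) and miR-214-3p (0.36 to 0.79 and -0.01 to 0.80). Since the arrays formed separate sets, no correlation with brightness is given. The part of brightness in the levels and the ratios was not tested.

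By their brighter probes, the levels of the 3 measured arms were positively correlated over the 8 arrays. Of 9 relations computed, 0 passed the adjustment (6 had an unadjusted p under 0.05). The 9 include 3 with array brightness, which are not given for the reason above. For miR-199a-5p with miR-199a-3p, Pearson's r was 0.80 (exact permutation p = 0.0143, adjusted p = 0.0625) and Spearman's rho 0.74 (exact permutation p = 0.0458, adjusted p = 0.206). For miR-199a-5p with miR-214-3p, r was 0.76 (exact permutation p = 0.0325, adjusted p = 0.0625) and rho 0.60 (exact permutation p = 0.132, adjusted p = 0.272). For miR-199a-3p with miR-214-3p, r was 0.76 (exact permutation p = 0.0357, adjusted p = 0.0625) and rho 0.62 (exact permutation p = 0.115, adjusted p = 0.272). Without the 2 arrays farthest from the median on the first-named arm, r came to 0.51, 0.41 and 0.56, so the size of each r rests on those arrays. Within slide row 1 r was 0.81, 0.86 and 0.52, and within row 2 it was 0.64, 0.49 and 0.50, over 4 arrays each and with no test. The dimmer miR-199a-5p probe did not show the positive correlation with miR-199a-3p. Over the 8 arrays its r was -0.19 and -0.29 with the miR-199a-3p probes, and 0.16 and 0.05 with the miR-214-3p probes, with no test. With the brighter probe of its own arm r was 0.17.

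The correlations between the brighter probes changed with the scaling. With no scaling, with the 75th percentile over all probes and with spike-in scaling r lay between 0.94 and 0.99 (exact permutation, largest adjusted p = 0.0021). Unscaled signals keep the brightness of the arrays, whose 75th percentile ran from 289 to 1185 units. Shared brightness and shared levels thus cannot be told apart in the unscaled r, and for the other scalings the cause was not tested. With the percentile of the clearly measured probes, the correlation between the 3p arms passed without sham replicate 4, at r = 0.91 (exact permutation, adjusted p = 0.0357).

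For each arm in turn, the 110 other tested miRNAs whose level varied over the arrays were ranked by their r with it. For miR-199a-5p, miR-199a-3p stood at rank 4 and miR-214-3p at rank 6. For miR-214-3p, miR-199a-3p stood at rank 7 and miR-199a-5p at rank 8, behind miR-140-3p with r = 0.97. For miR-199a-3p, miR-199a-5p stood at rank 16 and miR-214-3p at rank 22, and let-7a-5p was nearest with r = 0.94. The median r over all ranked miRNAs was 0.04 to 0.14. The points of these correlations share the same 8 arrays and their scaling, so the ranks are descriptions.

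The miRNAs whose pattern was most like the mean of the 3 standardized arms, of 75 others above the lower bound on all 8 arrays, were miR-140-3p (r = 0.92), miR-140-5p (r = 0.91) and miR-27b-3p (r = 0.91). miR-140 is best known from cartilage, where both its arms are made from an intron of Wwp2. Among those of opposite pattern were miR-30c-5p (r = -0.79), miR-30a-5p (r = -0.79) and the striated muscle miRNA miR-133b-3p (r = -0.76). The arms were neither the steadiest nor the most variable miRNAs. Over the 8 arrays the SD was 0.24 for miR-199a-5p, 0.34 for miR-199a-3p and 0.29 for miR-214-3p, against a median SD of 0.29 over the 78 tested miRNAs above the lower bound everywhere. The highest array was 1.68-fold, 1.91-fold and 1.76-fold above the lowest.

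**Figure D4:**
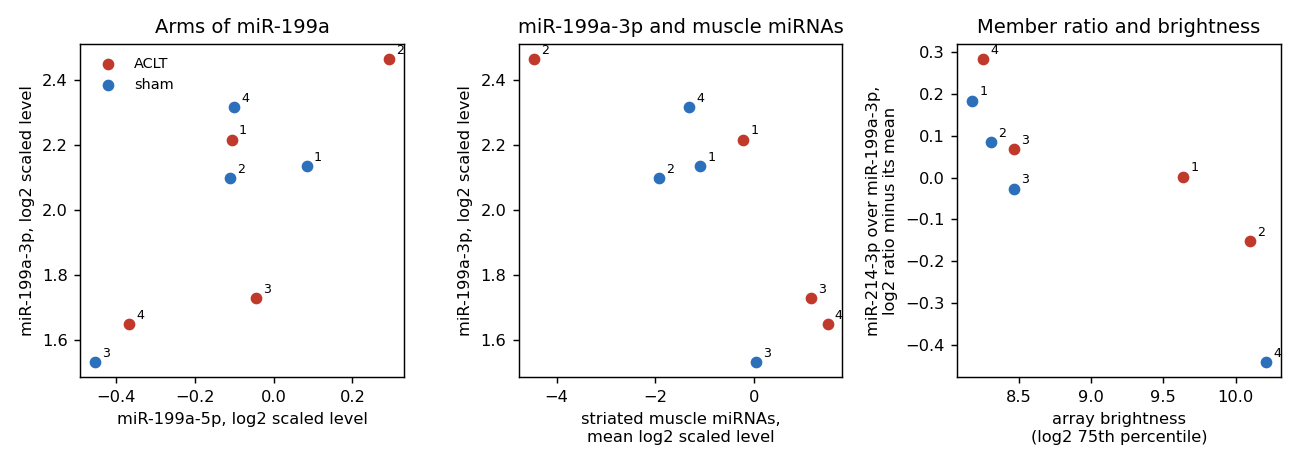
Left, level of miR-199a-3p against miR-199a-5p; middle, level of miR-199a-3p against the mean level of 4 striated muscle miRNAs; right, within-array ratio of miR-214-3p over miR-199a-3p against the brightness of the array. Points are single arrays with their replicate number: the 3 arrays with the lowest miR-199a-3p have the highest muscle level, and the 3 brighter arrays stand apart on the right.

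Striated muscle miRNAs are markers of tissue other than the synovial lining. With the percentile of the clearly measured probes, no correlation of an arm with their level passed the adjustment. Their mean level over the 4 tested of 8 listed miRNAs was -0.22, -4.47, 1.17 and 1.50 on the ACLT arrays. On the sham arrays it was -1.09, -1.92, 0.05 and -1.31. The value of -4.47, on ACLT replicate 2, lay close to the lower bound of the scale, -4.48. The 3 arrays with the highest muscle level, ACLT replicates 4 and 3 and sham replicate 3, were the 3 with the lowest miR-199a-3p, and ACLT replicate 2, lowest in muscle, was highest in miR-199a-3p and in miR-199a-5p. Pearson's r with the muscle mean was -0.81 for miR-199a-3p (exact permutation p = 0.0116, adjusted p = 0.0625), and Spearman's rho was -0.76 (exact permutation p = 0.0368, adjusted p = 0.206). It was -0.73 for miR-199a-5p (exact permutation p = 0.0417, adjusted p = 0.0625; rho -0.50, exact permutation p = 0.216, adjusted p = 0.278) and -0.58 for miR-214-3p (exact permutation p = 0.131, adjusted p = 0.169; rho -0.52, exact permutation p = 0.197, adjusted p = 0.278). Without the 2 arrays farthest from the median in muscle level, r was -0.66 for miR-199a-3p, -0.21 for miR-199a-5p and -0.52 for miR-214-3p, so the relation of miR-199a-5p rests on those arrays. Without ACLT replicate 2 alone, r was -0.74, -0.44 and -0.45 in the same order.

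Of the 136 probes whose 75th percentile scaled the arrays, 4 measure listed muscle miRNAs. With those left out, r with the muscle mean was -0.59 for miR-199a-3p, -0.31 for miR-199a-5p and -0.24 for miR-214-3p, while r between the arms stayed at 0.68 to 0.70 (exact permutation, adjusted p = 0.143 for each pair). Within slide row 1, over 4 arrays, r with the muscle mean was -0.77 for miR-199a-3p, -0.81 for miR-199a-5p and -0.42 for miR-214-3p. Within row 2 it was -0.76, -0.21 and 0.16. The summed linear level of the muscle list ran from 0.0459 to 16.4 after ACLT and from 1.43 to 6.30 after sham surgery. Here 1 is the 75th percentile, and the brightest probes of the list weigh most in the sum. The mean level was -0.50 ± 2.75 on ACLT and -1.07 ± 0.82 on sham arrays (SD, n = 4 each; two-sided exact permutation p = 0.800).

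Other miRNAs linked to mesenchyme and matrix were taken as a list of 14 that leaves out the cluster. Of its 13 tested members 8 had a positive and 5 a negative difference and 0 passed the test. The median was 0.07. With the percentile over all probes 12 were positive and 1 negative (median 0.45), and with spike-in scaling 4 were positive and 9 negative (median -0.13). Over all 113 tested miRNAs 38 differences were positive and 73 negative, with a median of -0.07, and with the percentile over all probes 95 were positive and 18 negative. Its smallest p-values belonged to miR-125b-5p (-0.38, SE 0.13), miR-34a-5p (0.58, SE 0.27) and miR-143-3p (-0.30, SE 0.14), each with an adjusted p = 0.645 by limma. The 3 arms of the cluster, at -0.0057 to 0.09, lay between these. The summed level of the list was 11.8 to 15.0 after ACLT and 10.1 to 14.0 after sham surgery. This sum adds linear signals of different probes, so the brightest of them weigh most in it.

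Of the lists for other cells of the joint, 0 tested members passed. The 4 tested of 6 leukocyte miRNAs had a median difference of -0.18, which turned to 0.20 when all probes set the percentile, 0.14 unscaled, 0.18 in the authors' deposited table and 0.03 with quantile normalization. For 4 tested adipose miRNAs the median was -0.08, which turned to 0.22, 0.17, 0.28 and 0.02 under the same settings. The median was negative for 3 erythroid miRNAs (-0.53) and positive for 3 cartilage miRNAs (0.25) and 4 striated muscle miRNAs (0.47), each with the same sign under the 6 other scalings. The single tested endothelial and smooth muscle miRNAs differed by -0.20 and -0.30, and by 0.18 and 0.08 with the percentile over all probes, and the single neural one by 0.12. Of 8 epithelial miRNAs 0 rose above the lower bound on any array. These lists describe the tissue, and their part in the levels of the cluster was not tested.

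Across the series 111 to 184 miRNAs were detected per array, and 10.5% to 17.0% of spots were well above background with 0 saturated. Sham replicate 4 and ACLT replicates 2 and 1, the 3 brighter arrays, had the most miRNAs detected. With 4 arrays in each group, their number limits the precision.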

How the data were processed

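Total RNA was labelled with Cy3 and read on 8 single-colour Agilent rat miRNA arrays; the labels' protocols name a Low Input Quick Amp kit, a product for messenger RNA, and no source used here settles the kit. Per the file headers, the authors read the images with Agilent Feature Extraction 10.7.3.1, and the deposited processed signals are linear intensity with background subtracted and no scaling between arrays. The deposited value table equals the software's total signal per miRNA (largest difference 0).

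Control spots and spots marked as outliers (9.01% to 11.1% per array) were left out, spots of a probe averaged, and each array divided by the 75th percentile of its 136 probes that were well above background everywhere. Values under 0.0449, the median over arrays of the lowest scaled signal well above background, were set to it, the lower bound, before log2. The test covered the 113 miRNAs detected, per the software, on every array of the ACLT or the sham group. ACLT and sham were compared by limma 3.58.1 in R 4.3.3 with Benjamini-Hochberg adjustment at 0.05, ratios and correlations by exact permutation; intervals are at 95%. The fits were checked on simulated data with independent noise and changes larger than those of the arms, so the check does not cover small changes or variation shared between miRNAs. All arrays share 1 slide and 1 scan date.

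The members, lists and tests were chosen with earlier results of these data known. Named are the 4 members and their probes, the 3 miRNAs most like them and the rank of members for each other. Of the mesenchyme and matrix list the 3 miRNAs with the smallest p are named. The other lists are given by counts and medians, without naming members by smallest p. The miRNAs of opposite pattern, those nearest to a single arm, miR-3120, the correlations scaled without muscle probes and the values by brightness were added after seeing the data. Alternatives were other scalings, background correction, probe summaries, filters, floors, variance models, blocks and leaving out arrays.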

Additional observations from a re-analysis of the deposited data

Results flagged for a closer look

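No array stood far enough from the other 3 of its group to be singled out in any of the 18 group values examined for the 6 probes of the measured arms and the 3 ratios, where chance alone gives 0.9.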

How the results depend on the processing

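Under 27 alternatives for each arm, 0 differences of the 3 arms passed the test. The difference of miR-199a-3p, -0.0057, became positive when all probes set the percentile (0.37), no scaling (0.32), the authors' deposited value table (0.32), the percentile without muscle probes (0.14), the mean of the probes (0.0022), outlier spots kept (0.0156), normexp on median signals (0.0157) and within slide row 1 (0.22). miR-199a-5p and miR-214-3p turned negative with spike-in scaling (-0.11 each). Leaving out each array in turn gave -0.17 to 0.12 for miR-199a-3p, -0.0276 to 0.19 for miR-199a-5p and -0.0602 to 0.21 for miR-214-3p, and 0 miRNAs passed in each of these fits. The median of all tested miRNAs was 0.25 over all probes, 0.19 unscaled, 0.21 in the authors' deposited table, -0.28 with spike-ins and -0.19 with normexp, against -0.07. Within slide row 1, 4 miRNAs passed by limma (24 at an unadjusted p under 0.05), none of them a member: miR-1224, miR-181b-5p, miR-466b-5p and miR-652-5p, named after their values were seen. All 4 had lower scaled means after ACLT there (-2.25 to -1.07); unscaled, the differences within that row were -0.63, 0.38, -0.52 and 0.02 in that order. miR-466b-5p and miR-652-5p were at the lower bound on both ACLT arrays of the row, and miR-181b-5p on 1. Both ACLT arrays of that row were of the brighter set and both sham arrays were not. Group and brightness thus cannot be told apart in its differences and ratios. Within row 2, 0 passed (10 at an unadjusted p under 0.05). The ratios of miR-199a-3p over miR-199a-5p, miR-214-3p over miR-199a-5p and miR-214-3p over miR-199a-3p changed sign within row 1 (0.12, -0.0917 and -0.21), and the first also with the dimmer miR-199a-5p probe, under the brighter (0.031) or the dimmer (0.0467) miR-199a-3p probe. Without 1 array they ran from -0.18 to 0.0049, -0.0615 to 0.10 and -0.0301 to 0.18. The correlations of miR-199a-5p with miR-199a-3p, miR-199a-5p with miR-214-3p and miR-199a-3p with miR-214-3p passed the adjustment with no scaling (r = 0.99, 0.98 and 0.99), the percentile over all probes (0.98, 0.97 and 0.98) and spike-in scaling (0.96, 0.94 and 0.96). With no scaling, shared brightness and shared levels cannot be told apart in these r. With the percentile of the clearly measured probes, leaving out 1 array gave r from 0.70 to 0.90, 0.58 to 0.83 and 0.61 to 0.91. The cause of these shifts was not tested.

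With the replicate number as a block the differences were 0.09 for miR-199a-5p, -0.0057 for miR-199a-3p and 0.09 for miR-214-3p (limma adjusted p = 0.930, 1.00 and 0.890), the ratios differed by -0.09, 0.0061 and 0.10, and 0 miRNAs passed. Arrays with the same number correlated at -0.19, 0.59, 0.80 and -0.41 in their deviations from the group means, so the numbers were not taken to pair the samples.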
